A study of Mus musculus with 16 samples.

Results

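Ubiquitin-conjugating enzymes, the E2 enzymes, were taken as every entry of the expression table whose gene name starts with Ube2, except Ube2c and Ube2s. This rule found 36 of the 28618 entries. Of these, 33 are E2 enzymes or E2 variants, Ube2cbp shares the name without being an E2, and Ube2d-ps and Ube2uos are annotated as a pseudogene and an antisense RNA. The study asked what the loss of Psma7, which encodes a subunit of the 20S proteasome core, does to the mouse oocyte. Germinal vesicle (GV) oocytes and metaphase II (MII) eggs of wild-type (WT) and Psma7 conditional knockout (cKO) C57BL/6 females were sequenced, with 4 libraries in each of 4 groups and 16 in all. In the cKO females (Zp3-Cre; Psma7 flox/flox) the Zp3 promoter drives Cre in growing oocytes, so that follicular cells keep Psma7. All females were 3 to 4 weeks old and received 5 IU PMSG, a gonadotropin that stimulates follicle growth. GV oocytes were collected 44 h later, and eggs 14 to 16 h after a following injection of hCG, which triggers ovulation, with removal of cumulus cells in 0.3% hyaluronidase. The labels give 5 oocytes per library, a smaller pool than the study's methods state. They name the libraries biological replicates but do not say whether the pools came from separate females. The p-values therefore set group differences against the spread between these libraries.

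Ubiquitin is attached to proteins by a relay of enzymes. An E1 enzyme activates ubiquitin, an E2 enzyme takes it over on a catalytic cysteine, and an E3 ligase brings the loaded E2 to the substrate. The E2 largely decides which linkage a chain gets, and thereby whether the substrate goes to the proteasome or is marked for signalling or repair; a few E2s carry ubiquitin-like modifiers such as NEDD8 instead. A full-grown oocyte is transcriptionally silent, and from GV to MII much of its stored mRNA is degraded while other mRNAs are kept and translated.

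Values were FPKM, fragments per kilobase of transcript scaled to the mapped fragments of the library, which allow levels to be compared between genes per length and are shares of a library rather than amounts per cell. Fewer cells and less RNA per cell cannot be told apart in them. Psma7 itself stood at 154, 142, 201 and 164 FPKM in the 4 WT GV libraries and at 14.5, 14.7, 11.1 and 18 in the cKO GV libraries. In eggs it was 118, 116, 97.7 and 172 FPKM in WT and 13.6, 50.3, 35 and 59.9 in cKO. The genotypes did not overlap at either stage, and 3 of the 4 cKO egg libraries lay above every cKO GV library. All 10 oocyte markers were at 1 FPKM or more in every library. Of 12 cumulus and granulosa cell markers, Cyp19a1 alone reached 1 FPKM, at 6.2 to 15.2; the summed list was 7.76 to 12.1 FPKM in GV oocytes and 12.6 to 15.3 in eggs. Cyp19a1 carried that difference. Of the others, all below 1 FPKM, Amh, Fshr, Inha, Inhba, Lhcgr and Ptgs2 had lower means in eggs than in GV oocytes of both genotypes (Fshr 0.482 and then 0.0232 FPKM in WT), Has2 and Cd44 had higher ones (Has2 0.0176 and then 0.0906 in WT), and Foxl2 and Tnfaip6 were each listed at 0 in 15 of 16 libraries. Depth was known only roughly. Low values of genes with 1 annotated transcript were fitted with a step that corresponds to 10600000 to 15900000 fragments per library. Of these low values, 37.4% to 40.9% lay within 10% of a whole step. The step was searched only within a range set beforehand, which bounds the estimate. The share that values without a step would give was not computed.

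The family's level was carried by Ube2d3 and Ube2t. Ube2d3, a general ubiquitin E2 that works with many E3 ligases, stood at 1127, 1145, 1162 and 985 FPKM in WT GV oocytes. Ube2t, the E2 of the Fanconi anaemia repair pathway, stood at 553, 612, 755 and 593 FPKM. No library of either overlapped the other or the next gene in order, and the 36 entries summed to 2411 to 2738 FPKM, of which Ube2d3 took 40.9% to 44.9% and Ube2t 22% to 27.6%. Below them came Ube2g1 at 137 ± 7.09 FPKM, Ube2a at 111 ± 9.64, Ube2w at 105 ± 6.7 and Ube2g2 at 91.7 ± 32 (mean ± SD, n = 4). Ube2a overlapped Ube2w, and Ube2w overlapped Ube2g2, so that the order of these 3 is not set beyond their spread. Further down, the entries ran from Ube2f at 35.4 ± 2.49 FPKM to Ube2v2 at 1.09 ± 0.0755. Ube2uos (0 to 0.444 FPKM), Ube2d2b (0 to 0.0588), Ube2ql1 (0 to 0.0509) and Ube2dnl2 (0 to 0.306) stayed below 1 FPKM in every library and entered no test.

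**Figure D1:**
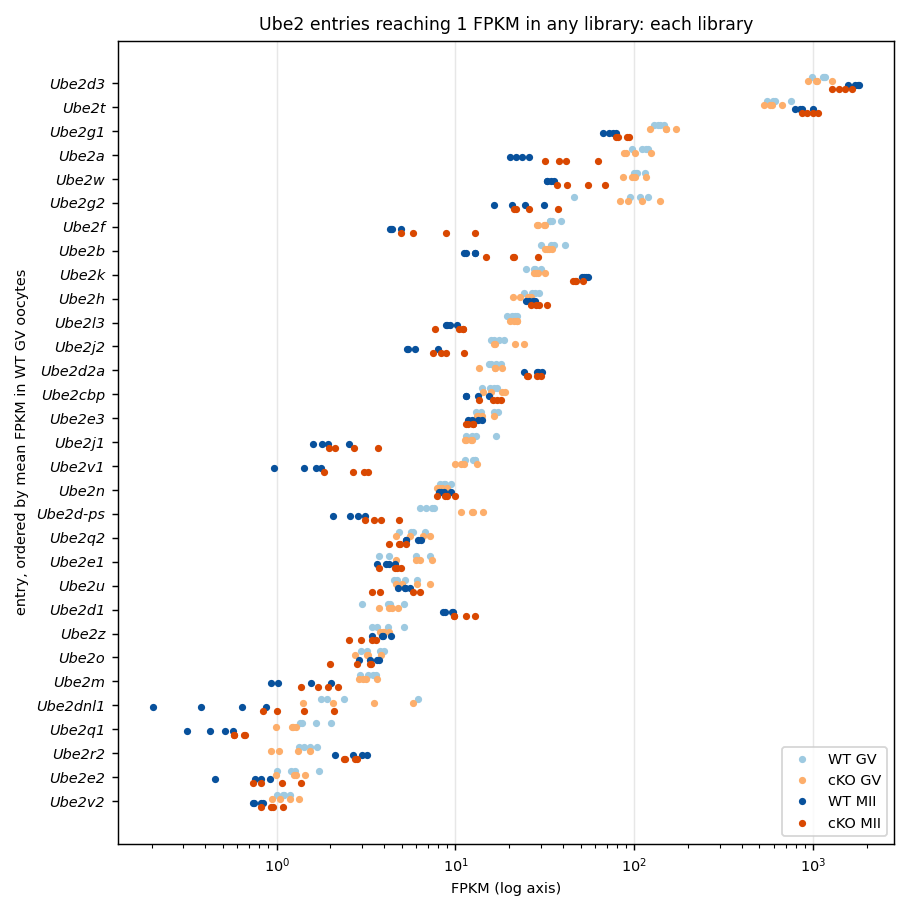
FPKM (log axis) of 31 of the 32 Ube2 entries that reach 1 FPKM in any library, ordered by their mean in WT GV oocytes, with a point for each library. Ube2d3 and Ube2t lie at 533 FPKM or above in all 16 libraries, and no other entry exceeds 172.

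In WT eggs the summed family stood at 2930 to 3236 FPKM, above every WT GV library, and in cKO it was 2312 to 2804 FPKM in GV oocytes and 2920 to 3100 in eggs. The sum without Ube2d3 and Ube2t went the other way, from 803 to 833 FPKM in WT GV oocytes to 492 to 519 in WT eggs. In cKO this remainder was 791 to 863 FPKM in GV oocytes and 539 to 632 in eggs, where all 4 libraries lay above the 4 WT egg libraries. Ube2d3 took 53% to 58.1% of the summed family in WT eggs and 43.7% to 53.2% in cKO eggs. These sums were not tested.

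Between WT GV oocytes and WT eggs, 7 of the 31 members tested with limma were higher in eggs and 15 were lower (adjusted p under 0.05), which is 22.6% and 48.4% of the members beside 26.1% and 52.4% of the 10475 entries tested. Neither share is above that of all entries. The median log2 fold change was -0.31 over the members and -0.44 over all entries, and rescaling the libraries by median ratios moved the latter to -0.22, with 7 members higher and 13 lower of 30 beside 33.2% and 46% of all entries. By group means, 7 members were over 3-fold lower in WT eggs, 22.6% beside 22.1% of all entries tested. In cKO, 8 of 31 members were higher in eggs and 15 lower, 25.8% and 48.4% beside 23% and 51% of 10748 entries, with medians of -0.30 and -0.42. Rescaling moved that median over all entries to -0.17 and the share of higher among all called entries from 31.1% to 42%, with 9 members higher and 12 lower of 31 beside 31.1% and 42.9% of all entries. In cKO 5 members were over 3-fold lower, 16.1% beside 17.2%. The WT and cKO comparisons share no library; 7 members were higher in both (100% of the WT list and 87.5% of the cKO list) and 13 were lower in both (86.7% of each list). Over all entries 80.8% of the WT list and 89.5% of the cKO list were higher in both, and 89.4% and 89.5% lower in both, so that the overlap is not particular to the members.

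Between genotypes far fewer members changed. In GV oocytes 1 of 32 members, the pseudogene Ube2d-ps, was higher in cKO beside 0.0994% of the 11062 entries tested, and 0 were lower by limma beside 0.0181%. At an unadjusted p under 0.05 limma gave 1 member higher (7.62% of all entries) and 2 lower (3.06%), Ube2f and Ube2q1. The median log2 fold change over the members was -0.04, beside 0.04 over all entries. In eggs 2 of 28 members, Ube2a and Ube2b, were higher in cKO, 7.14% beside 6.53% of the 9492 entries, and 0 were lower beside 1.49%. At an unadjusted p under 0.05 limma gave 10 higher (35.7% beside 20.6% of all entries) and 2 lower (7.14% beside 8.8%). The medians were 0.14 and 0.07, and rescaling took the share of higher among all called entries from 81.5% to 71.1% while the members counted were again 2 and 0, beside 5.37% and 2.18% of all entries. The interaction of genotype and stage was positive for 1 of 30 members, Ube2a, beside 1.07% of 10615 entries, and negative for 0 beside 0.188%. Unadjusted, limma gave 6 positive (12.7% of all entries) and 1 negative (5.03%). By group means no member differed over 3-fold between genotypes at either stage, beside 0.0362% of all entries higher and 0.0271% lower in cKO GV oocytes and 1.76% and 0.0211% in cKO eggs. With no overlap of libraries, 1 member was higher in cKO GV oocytes (Ube2d-ps, 4.25% of all entries) and 2 lower (Ube2f and Ube2q1, 2.42%), and 5 were higher in cKO eggs (Ube2a, Ube2b, Ube2d1, Ube2v1 and Ube2w, 13.6%) and 1 lower (Ube2q2, 7.06%).

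The egg libraries of the cKO group stood apart from the WT eggs as a whole. On a scale from the mean of the WT GV libraries (0%) to the mean of the WT eggs (100%), computed over 10444 entries without the family, the WT eggs lay at 102%, 98.1%, 99.6% and 101%, and the cKO eggs at 81.7%, 90.8%, 60.4% and 78.4%. Of the 10 oocyte markers, 2 were called higher in cKO eggs, where 6.53% of all entries were. Zp3, a coat protein gene whose mRNA falls during maturation, stood at 407, 487, 411 and 321 FPKM in WT eggs and 781, 722, 1314 and 974 in cKO eggs (log2 1.20 ± 0.19, adjusted p = 0.0203). That call was lost without WT MII replicates 1, 3 and 4 (adjusted p = 0.0701, 0.0576 and 0.057) and without the filter on low values (0.075), over a range of 0.000402 to 0.075 for all alternatives. Ooep was at the threshold (log2 0.53 ± 0.14, adjusted p = 0.0499, range 0.0347 to 0.19) and kept the call in 4 of 19 alternatives, and of single libraries left out only cKO MII replicate 4 kept it. On the scale of maturation, replicate 3 of the cKO eggs was nearest to GV oocytes and replicate 2 nearest to WT eggs. The cKO GV libraries lay between -4.52% and -1.03%, within the WT GV range of -4.12% to 5.44% but for replicate 3. The part of these positions in the differences between egg groups described next was not tested.

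Ube2a and Ube2b are the mouse RAD6 genes, which with Rnf20 and Rnf40 ubiquitinate histone H2B and with Rad18 mark PCNA at stalled replication forks. Ube2a stood at 119, 97.4, 116 and 110 FPKM in WT GV oocytes and at 23.5, 25.8, 20.3 and 21.8 in WT eggs. In cKO it was 124, 89.6, 88 and 101 FPKM in GV oocytes and 41.3, 31.6, 63 and 38 in eggs. The genotypes overlapped in GV oocytes, whereas every cKO egg library lay above every WT egg library, with replicate 3 highest and replicate 2 lowest. Ube2a fell by 2.28 ± 0.10 (log2, SE) in WT, a 4.84-fold drop, and by 1.24 ± 0.20 in cKO (adjusted p = 7.22e-09 and 0.000447). Ube2a was 1.85-fold higher in cKO eggs than in WT eggs (log2 0.89 ± 0.19, adjusted p = 0.0332, higher in 4 of 4 libraries), and its interaction was 1.03 ± 0.24 (adjusted p = 0.0434).

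Ube2b behaved alike at a lower level. It stood at 30.2, 34.2, 41 and 35.4 FPKM in WT GV oocytes and 11.5, 12.8, 11.1 and 12.8 in WT eggs. In cKO it was 34.7, 32.5, 31.7 and 33.4 FPKM in GV oocytes and 21.2, 14.9, 29.1 and 20.9 in eggs. The egg groups did not overlap, the GV groups did, and replicate 3 of the cKO eggs was again highest and replicate 2 lowest. Ube2b fell by 1.54 ± 0.11 (log2) in WT and by 0.66 ± 0.18 in cKO (adjusted p = 2.49e-07 and 0.0074; log2 -0.41 in cKO with rescaled libraries), and was 1.74-fold higher in cKO than WT eggs (log2 0.80 ± 0.18, adjusted p = 0.035, 4 of 4 libraries). Its interaction of 0.88 ± 0.21 missed the threshold (adjusted p = 0.0524). In GV oocytes the ratio of Ube2a to Ube2b lay between 2.83 and 3.95 (WT) and between 2.76 and 3.57 (cKO), and in eggs between 1.7 and 2.04 (WT) and between 1.82 and 2.17 (cKO). The ratio thus overlapped between genotypes and not between stages.

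The calls of both genes between egg groups were close to the threshold. Without WT MII replicate 1, 2, 3 or 4 the adjusted p in cKO against WT eggs was 0.0947, 0.0673, 0.0806 and 0.0759 for Ube2a and 0.102, 0.0712, 0.0861 and 0.0752 for Ube2b. Without cKO MII replicate 1 or 4 it was 0.0606 and 0.0502 for Ube2a and 0.0627 and 0.0624 for Ube2b. Ube2v1 was the 1 member called without cKO MII replicate 4, and Ube2w was called beside Ube2a and Ube2b without replicate 2. Of all entries 3.8% were called higher without replicate 4 and 10.8% without replicate 2, beside 6.53% in the main fit. Without the filter on low values the adjusted p was 0.108 for Ube2a and 0.114 for Ube2b. The 620 entries called higher among all entries fell in number as well, to 12, 109, 3 and 31 without WT MII replicates 1 to 4. Over all alternatives it ran from 0.00323 to 0.108 for Ube2a and from 0.0032 to 0.114 for Ube2b. Leaving out cKO MII replicates 3 and 4 together, a choice made after seeing the data, left Ube2a past the threshold and gave Ube2b a log2 fold change of 0.56 (adjusted p = 0.0819). The interaction of Ube2a missed the threshold without any of 11 of the 16 libraries in turn. Its adjusted p was 0.0735, 0.0763 and 0.0877 without WT GV replicates 1, 3 and 4, 0.0893, 0.089 and 0.0659 without cKO GV replicates 2, 3 and 4, 0.0822, 0.0503, 0.0851 and 0.0805 without WT MII replicates 1 to 4, and 0.0526 without cKO MII replicate 1, where Ube2f was called instead. It was 0.0537 with 1 FPKM added, 0.146 without the filter, 0.0557 without the intensity trend and 0.0666 without cKO MII replicates 3 and 4, over a range of 0.00714 to 0.146 for all alternatives. Without cKO MII replicate 2 the interaction was called for 5 members (Ube2a, Ube2b, Ube2f, Ube2v1 and Ube2w), and without replicate 4 for 2 (Ube2a and Ube2v1). Over all entries 5.67% and 1.21% had a positive interaction in these fits, beside 1.07% in the main fit.

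**Figure D2:**
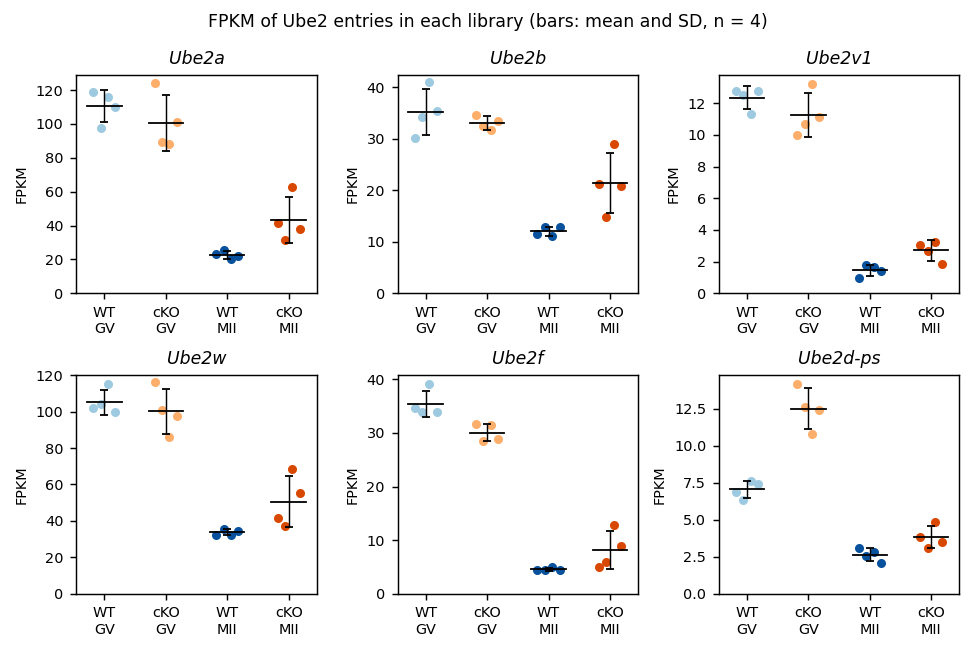
FPKM of 6 Ube2 entries in each of the 16 libraries by genotype and stage, with the mean and SD of each group (n = 4). Ube2a lies at 20.3 to 25.8 FPKM in WT eggs and 31.6 to 63 in cKO eggs, and Ube2d-ps at 6.32 to 7.61 FPKM in WT GV oocytes and 10.8 to 14.2 in cKO GV oocytes.

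Since both RAD6 genes were called together, their sequences were compared to see whether fragments could be assigned to the wrong copy. Ube2a lies at chrX:36873900-36884222 on the plus strand and Ube2b at chr11:51985497-52000762 on the minus strand of mm10 (GENCODE M21). Each has a coding sequence of 456 bases in 6 coding exons of equal lengths, and 354 bases (77.6%) are identical. No stretch of 50 bases of either gene's transcripts occurs in a transcript of another gene. The coding exon 5 of each gene (bases 242 to 330 of the coding sequence, chrX:36882599-36882687 and chr11:51988612-51988700) is shown 5′ to 3′ as an example of how the differences are spread, with the 15 bases that differ in capitals.
Ube2a: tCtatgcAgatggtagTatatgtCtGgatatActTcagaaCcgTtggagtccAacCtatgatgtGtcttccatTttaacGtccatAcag
Ube2b: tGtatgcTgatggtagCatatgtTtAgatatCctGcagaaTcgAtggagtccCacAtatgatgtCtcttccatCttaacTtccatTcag

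The third E2 of chromatin and DNA repair, Ube2t, did not follow the RAD6 genes. Its level in eggs was 1001, 866, 842 and 794 FPKM in WT and 1057, 998, 925 and 871 in cKO, above all GV libraries, which reached 755 in WT and 668 in cKO. Ube2t rose by 0.48 ± 0.11 (log2) in WT and 0.71 ± 0.10 in cKO (adjusted p = 0.002 and 0.000148). The genotypes overlapped at both stages, with log2 differences of -0.09 ± 0.11 in GV oocytes and 0.14 ± 0.09 in eggs (adjusted p = 0.838 and 0.343).

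Of the 10 general ubiquitin E2s, 8 were tested between stages. Ube2d1, Ube2d2a and Ube2d3 rose in eggs of both genotypes. Ube2d1 stood at 5.13, 3, 4.31 and 4.21 FPKM in WT GV oocytes and 8.79, 9.53, 9.64 and 8.54 in WT eggs, and in cKO at 4.8, 3.73, 4.26 and 4.43 and then 9.81, 12.8, 9.76 and 11.5. All egg libraries lay above all GV libraries, and the cKO eggs above the WT eggs. Ube2d1 rose by 1.16 ± 0.16 in WT and 1.34 ± 0.13 in cKO (log2, adjusted p = 5.02e-05 and 2.12e-05), and differed by 0.26 ± 0.11 between the egg groups (adjusted p = 0.165). Ube2d2a was 15.4 to 18 FPKM in WT GV oocytes and 24.1 to 30.3 in WT eggs, and rose by 0.76 ± 0.10 in WT and 0.75 ± 0.11 in cKO (adjusted p = 3.43e-05 and 0.000283). Ube2d3, the most abundant member, reached 1716, 1566, 1788 and 1805 FPKM in WT eggs and 1275, 1503, 1399 and 1648 in cKO eggs, with cKO GV libraries at 1273, 1053, 1031 and 937. The egg groups overlapped, and cKO replicate 1 was lowest and level with the highest cKO GV library. Ube2d3 rose by 0.64 ± 0.08 in WT and 0.44 ± 0.12 in cKO (adjusted p = 3.95e-05 and 0.00719; 0.69 in cKO with rescaled libraries), and cKO eggs differed from WT eggs by -0.24 ± 0.09 (adjusted p = 0.118).

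Other general E2s fell or showed no call, and these were chosen for description after their values were seen. Ube2w, which attaches ubiquitin to the amino terminus of proteins, stood at 32.4, 35.6, 32.3 and 34.4 FPKM in WT eggs and 41.8, 37, 68.6 and 55.1 in cKO eggs, after 99.7 to 115 in WT and 86.2 to 116 in cKO GV oocytes. The cKO eggs lay above the WT eggs without overlap, with replicate 3 highest, but the difference missed the threshold (log2 0.55 ± 0.17, adjusted p = 0.0797). Ube2w fell by 1.64 ± 0.08 in WT and 1.02 ± 0.19 in cKO (adjusted p = 1.22e-08 and 0.000928). Ube2dnl1 was called lower in eggs of both genotypes (log2 -1.41 ± 0.33 and -1.07 ± 0.43, adjusted p = 0.00248 and 0.0451), the WT value being -2.54 with a floor of 0.1 FPKM (adjusted p = 0.000783, range over all alternatives 6.98e-05 to 0.0211), but its libraries ranged from 1.76 to 6.15 FPKM within WT GV oocytes alone, and 11.7% of its 50-base stretches occur in Ube2dnl2. Its call in cKO was lost without cKO GV replicates 1 (log2 -0.71), 2 and 3 (adjusted p = 0.111, 0.107 and 0.0506), without cKO MII replicates 1, 2 and 4 (0.105, 0.102 and 0.0706), with rescaled libraries (0.095) and without the filter (0.153), over a range of 0.0122 to 0.153 for all alternatives. Ube2e1, Ube2e2 and Ube2e3 were at 3.66 to 7.35, 0.451 to 1.73 and 11.4 to 17.3 FPKM over the 16 libraries, and of these Ube2e1 alone was called, lower in cKO eggs than cKO GV oocytes with overlapping libraries (log2 -0.42 ± 0.16, adjusted p = 0.0407), beside -0.31 ± 0.20 in WT (adjusted p = 0.171) and an interaction of -0.11 ± 0.27 (adjusted p = 0.884). That call was lost without cKO GV replicates 2, 3 and 4 (adjusted p = 0.0933, 0.109 and 0.0776), without cKO MII replicates 2, 3 and 4 (0.0664, 0.0969 and 0.059), with rescaled libraries (log2 -0.17, adjusted p = 0.381), without the filter (0.1) and with all 16 libraries in one fit (0.0538), over a range of 0.00942 to 0.381. Ube2e1 shares 15% of its 50-base stretches with Nkiras1 on the opposite strand, which reads without strand cannot separate. Nkiras1 stood at 43.1 to 75.4 FPKM over the 16 libraries, far above Ube2e1, so that the level of Ube2e1 is uncertain.

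Chains linked through lysine 63 of ubiquitin, used in signalling and repair rather than degradation, are built by Ube2n together with a catalytically inactive partner, Ube2v1 or Ube2v2. The enzyme and its partner parted during maturation. Ube2n stood at 8.22, 8.71, 9.45 and 8.66 FPKM in WT GV oocytes and 8.61, 8.06, 8.34 and 9.47 in WT eggs, and in cKO at 8.11, 7.91, 8.92 and 8.42 and then 7.9, 8.69, 8.93 and 9.91. All 4 groups overlapped, and the log2 change from GV to MII was -0.02 ± 0.10 in WT and 0.08 ± 0.11 in cKO (adjusted p = 0.835 and 0.505). With rescaled libraries Ube2n was called higher in cKO eggs than in cKO GV oocytes. Of its 50-base stretches, 9.51% occur in the pseudogene Ube2n-ps1, which is not among the entries.

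Ube2v1 stood at 12.8, 12.5, 11.3 and 12.8 FPKM in WT GV oocytes and 0.972, 1.78, 1.65 and 1.42 in WT eggs. In cKO it was 10, 10.7, 13.2 and 11.1 FPKM in GV oocytes and 3.08, 2.67, 3.25 and 1.83 in eggs. Stages did not overlap, and the cKO eggs lay just above the WT eggs, with replicate 4 at 1.83 beside a highest WT value of 1.78. The fall by 3.11 ± 0.18 (log2) in WT, 8.64-fold, was the largest of the family in the main fit, close to that of Ube2f, which was larger with 1 FPKM added to all values (log2 -2.72 beside -2.45) and, narrowly, without WT MII replicate 1. The fall in cKO was 2.08 ± 0.19 (adjusted p = 4.61e-08 in WT and 1.35e-05 in cKO). The difference between egg groups, 0.89 ± 0.24, and the interaction, 1.03 ± 0.27, both missed the threshold (adjusted p = 0.0526 and 0.0664). In GV oocytes the ratio of Ube2v1 to Ube2n lay between 1.2 and 1.55 (WT) and between 1.23 and 1.48 (cKO), and in eggs between 0.113 and 0.22 (WT) and between 0.185 and 0.39 (cKO). Ube2v1 is uncertain as an entry of its own, since 56.8% of its 50-base stretches also lie in Gm20431, a transcript unit on the same strand that is not among the entries. Ube2v2 stayed between 0.74 and 1.34 FPKM in all 16 libraries. Its WT egg libraries (0.74 to 0.837 FPKM) lay below its WT GV libraries (1 to 1.19). In WT its mean did not reach 1 FPKM, so that this difference was not tested. In cKO the stages overlapped (log2 -0.15 ± 0.12, adjusted p = 0.269).

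The E2s that build lysine 48 chains or serve cullin ligases, whose products are the usual substrates of the proteasome, moved in both directions. Ube2k, which extends such chains by itself, stood at 24.7, 27.6, 30 and 27.7 FPKM in WT GV oocytes and 55, 54, 52 and 50.9 in WT eggs, and in cKO at 28.2, 27.4, 29.1 and 31.8 and then 47.1, 51.6, 46.6 and 45.5. Eggs lay above GV oocytes in both genotypes, and the cKO eggs mostly below the WT eggs, with replicate 2 inside the WT range. Ube2k rose by 0.95 ± 0.08 in WT and 0.71 ± 0.08 in cKO (log2, adjusted p = 1.3e-06 and 5.75e-05), and the egg groups differed by -0.15 ± 0.06 (adjusted p = 0.153).

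Ube2r2, a partner of cullin ligases, was low, at 1.34 to 1.69 FPKM in WT GV oocytes and 2.13 to 3.21 in WT eggs, and rose by 0.87 ± 0.16 in WT and 1.10 ± 0.16 in cKO (adjusted p = 0.000394 and 0.000205), the latter 0.71 with 1 FPKM added. Ube2g1, an E2 of lysine 48 chains and the most abundant of this group, went the other way. Its libraries read 129, 140, 136 and 146 FPKM in WT GV oocytes and 76.4, 71.8, 66.7 and 79.3 in WT eggs, and 151, 150, 172 and 122 in cKO GV oocytes and 92.9, 79.2, 90.8 and 81.1 in cKO eggs. The stages did not overlap, and 3 of the 4 cKO egg libraries lay above all WT eggs. Ube2g1 fell by 0.90 ± 0.08 in WT and 0.78 ± 0.11 in cKO (adjusted p = 1.51e-06 and 0.00021), and the egg groups differed by 0.23 ± 0.08 (adjusted p = 0.107).

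All 3 E2s that serve the endoplasmic reticulum, where misfolded proteins are ubiquitinated for export to the proteasome, fell in eggs of both genotypes, as did 52.4% of all entries in WT and 51% in cKO. Ube2j1, anchored in the membrane of the reticulum, stood at 16.8, 11.5, 13 and 12.3 FPKM in WT GV oocytes and 1.59, 1.79, 2.53 and 1.94 in WT eggs. Its cKO libraries read 12.3, 12.2, 11.5 and 11.3 FPKM in GV oocytes and 1.95, 2.11, 3.69 and 2.71 in eggs. The stages lay far apart and the genotypes overlapped at each stage. Ube2j1 fell by 2.78 ± 0.17 in WT and 2.22 ± 0.19 in cKO (log2, adjusted p = 9.33e-08 and 1.03e-05). Ube2g2, the soluble E2 of the same pathway, had the widest spread of the abundant members, at 119, 107, 46.2 and 94 FPKM in WT GV oocytes and 83.1, 111, 139 and 91.8 in cKO GV oocytes. In eggs it was 24.4, 20.8, 31.4 and 16.4 FPKM in WT and 37.2, 25.8, 21.2 and 21.9 in cKO. WT GV replicate 3 was the low library, and it still lay above all eggs. Ube2g2 fell by 1.93 ± 0.28 in WT and 2.01 ± 0.21 in cKO (adjusted p = 8.79e-05 and 2.93e-05). Ube2j2, named after its values were seen, fell by 1.48 ± 0.14 and 1.13 ± 0.17 (adjusted p = 2.36e-06 and 0.000234).

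Ube2f and Ube2m charge cullins with NEDD8, which switches cullin ligases on, and both fell in eggs. Ube2f stood at 34.7, 33.9, 39.1 and 33.9 FPKM in WT GV oocytes and 4.35, 4.33, 4.96 and 4.42 in WT eggs, and in cKO at 31.6, 28.5, 31.4 and 28.8 and then 4.95, 5.82, 12.8 and 8.81. The cKO GV libraries all lay below the WT GV libraries, and in eggs cKO replicate 1 lay within the WT range and replicate 3 highest. Ube2f fell by 2.97 ± 0.10 in WT, 7.83-fold, and by 1.99 ± 0.26 in cKO (adjusted p = 1.19e-09 and 0.000119). Neither genotype difference passed the threshold, at -0.23 ± 0.09 in GV oocytes and 0.74 ± 0.27 in eggs (adjusted p = 0.379 and 0.107), nor did the interaction of 0.98 ± 0.29 (adjusted p = 0.0964). Ube2m, at 2.92 to 3.61 FPKM in WT GV oocytes, fell by 1.30 ± 0.22 and 0.84 ± 0.16 (adjusted p = 0.000249 and 0.0013), so that the ratio of Ube2f to Ube2m went from 10 to 11.6 in WT GV oocytes to 2.15 to 5.3 in WT eggs. Ube2z, which takes ubiquitin from the alternative E1 Uba6, ranged from 2.55 to 5.13 FPKM over the 16 libraries and was called in cKO alone, lower in eggs (log2 -0.36 ± 0.14, adjusted p = 0.0364), beside -0.06 ± 0.15 in WT (adjusted p = 0.712) and an interaction of -0.30 ± 0.20 (adjusted p = 0.487). The call of Ube2z was lost without cKO GV replicates 2, 3 and 4 (adjusted p = 0.0729, 0.0624 and 0.0849), without cKO MII replicates 1 and 4 (0.0725 and 0.094), with rescaled libraries (log2 -0.11, adjusted p = 0.469) and without the filter (0.0962), over a range of 0.0252 to 0.469. Ube2m and Ube2z were named after their values were seen.

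**Figure D3:**
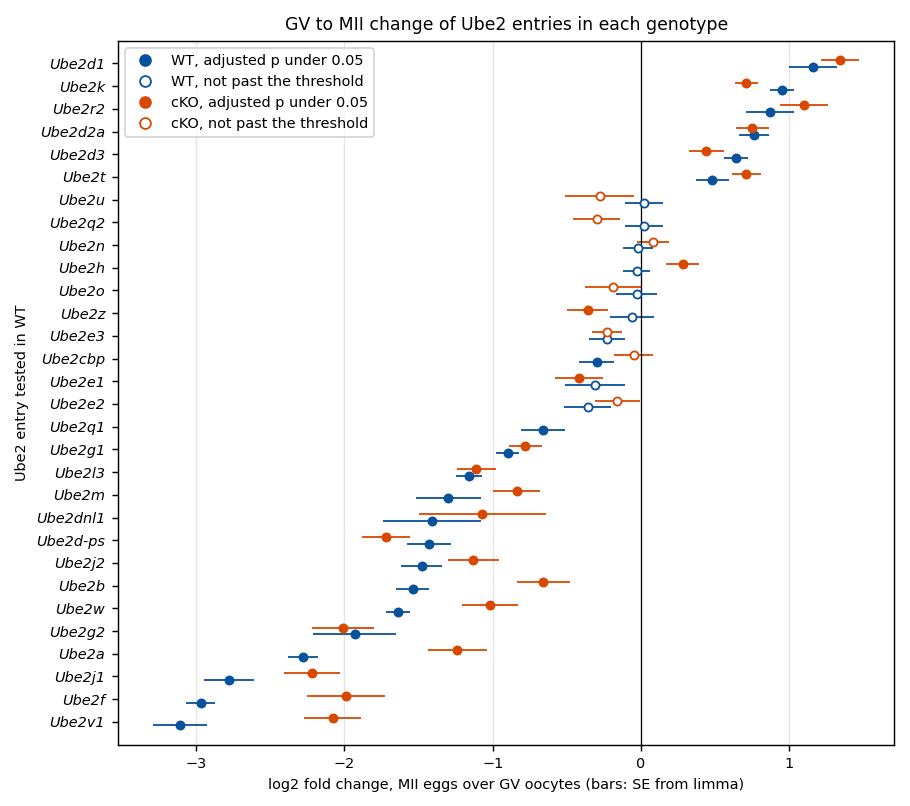
Log2 fold change from GV oocytes to MII eggs, with SE from limma, of 30 of the 31 Ube2 entries tested in WT (blue) and of those also tested in cKO (orange), where filled points passed an adjusted p of 0.05. The points run from -3.11 for Ube2v1 to 1.16 for Ube2d1 in WT, and Ube2a stands at -2.28 in WT and -1.24 in cKO.

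Among the other E2s, Ube2h, the E2 of the CTLH ligase whose targets include maternal proteins of the early embryo, was the most abundant. It stood at 24.1, 27.7, 29.2 and 26.8 FPKM in WT GV oocytes and 27.7, 25.7, 24.8 and 27 in WT eggs, and in cKO at 21.1, 22.9, 25.3 and 26.6 and then 32.5, 29.2, 26.3 and 28.2. The groups overlapped at each step. Ube2h was called higher in cKO eggs than cKO GV oocytes (log2 0.28 ± 0.11, adjusted p = 0.0381; 0.53 with rescaled libraries), beside -0.03 ± 0.09 in WT (adjusted p = 0.731), and the interaction missed the threshold (0.31 ± 0.13, adjusted p = 0.224). The call was lost without cKO GV replicates 1 and 2 (adjusted p = 0.0894 and 0.0879) and without cKO MII replicates 1, 2 and 4 (0.0962, 0.0778 and 0.0615) and without the filter (0.073), over a range of 0.00163 to 0.107 for all alternatives. Part of Ube2h, 44% of its 50-base stretches, is shared with Gm26526, which is not among the entries. Ube2l3, the E2 of parkin and other ligases that take ubiquitin on a cysteine, was named after its values were seen; it was 19.3 to 22.1 FPKM in WT GV oocytes and 8.85 to 10.2 in WT eggs, and fell by 1.16 ± 0.09 in WT and 1.11 ± 0.13 in cKO (adjusted p = 6.44e-07 and 5.25e-05). It shares 27.2% of its 50-base stretches with Ydjc on the opposite strand, at group means of 0.169 to 1.58 FPKM. Ube2q1, also named after its values were seen, fell in WT by 0.66 ± 0.15 (adjusted p = 0.00168). This value was held down by the floor, since all 4 WT egg libraries lay below 1 FPKM. With a floor of 0.1 FPKM the log2 fold change was -1.83 (adjusted p = 8.7e-05). Only 12 of 18 alternatives tested Ube2q1 in WT, with adjusted p from 5.07e-05 to 0.00572. In cKO Ube2q1 did not reach the mean of 1 FPKM needed for the test. Ube2o, Ube2q2 and Ube2u, at 1.99 to 3.97, 4.25 to 7.21 and 3.41 to 7.22 FPKM over the 16 libraries, passed no test. Ube2q2 lay lower in cKO eggs without overlap, at 6.21, 6.45, 5.29 and 5.28 FPKM in WT and 5.26, 4.25, 4.91 and 4.83 in cKO (log2 -0.27 ± 0.12, adjusted p = 0.172). Ube2cbp, which is no E2, stood at 15.6, 14.1, 17.1 and 16.5 FPKM in WT GV oocytes and 13.3, 11.5, 11.5 and 15.4 in WT eggs, with overlap. It was called lower in WT eggs (log2 -0.30 ± 0.12, adjusted p = 0.0385), a call lost without WT GV replicates 1, 3 and 4 (adjusted p = 0.0643, 0.0799 and 0.088), without WT MII replicates 1, 2 and 3 (0.0592, 0.109 and 0.104) with rescaled libraries (log2 -0.08, adjusted p = 0.59) and without the filter (0.0869), over a range of 0.00915 to 0.59 for all alternatives.

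Ube2d-ps, a transcribed pseudogene of the Ube2d group, was the one member called between genotypes in GV oocytes. It stood at 6.88, 6.32, 7.61 and 7.4 FPKM in WT and 14.2, 12.6, 10.8 and 12.4 in cKO GV oocytes, and in eggs at 3.12, 2.57, 2.85 and 2.06 in WT and 3.81, 3.11, 4.85 and 3.51 in cKO. The GV groups lay apart, while the lowest cKO egg library, replicate 2, fell within the WT eggs. Ube2d-ps was 1.77-fold higher in cKO GV oocytes (log2 0.82 ± 0.12, adjusted p = 0.0385, 4 of 4 libraries) and 1.44-fold higher in cKO eggs, where the difference missed the threshold (log2 0.53 ± 0.18, adjusted p = 0.0981). It fell by 1.43 ± 0.15 in WT and 1.72 ± 0.16 in cKO (adjusted p = 5.55e-06 and 1.3e-05), and the interaction was -0.30 ± 0.22 (adjusted p = 0.52). The call in GV oocytes was lost without WT GV replicates 1, 2 and 4 (adjusted p = 0.0638, 0.0937 and 0.0952) and without cKO GV replicates 1, 2 and 4 (0.147, 0.0863 and 0.116) and without the filter (0.137), with log2 fold changes of 0.76 to 0.89 whichever library was left out and adjusted p-values of 0.0126 to 0.225 over all alternatives.

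Ube2d-ps lies at chr11:5762129-5784710 on the plus strand of mm10 and is annotated as a transcribed unprocessed pseudogene. Its shortest annotated transcript, of 441 bases, has the length of the Ube2d1 coding sequence and is identical to it at 338 of 444 aligned positions (76.1%), with 100 substitutions and 6 gapped positions. No stretch of 50 bases is shared with another member. It overlaps exons of Urgcp on the opposite strand, which stood at 0 to 0.0912 FPKM over the 16 libraries. Ube2d1 lies at chr10:71254980-71285262 on the minus strand. The first 60 aligned bases without a gap, bases 148 to 207 of the Ube2d1 coding sequence and 145 to 204 of the pseudogene transcript, are shown 5′ to 3′ to let the copies be told apart, with the 13 bases that differ in capitals.
Ube2d1: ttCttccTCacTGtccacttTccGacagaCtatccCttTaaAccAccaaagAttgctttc
Ube2d-ps: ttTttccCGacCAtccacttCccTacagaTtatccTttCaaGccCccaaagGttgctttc

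The enzymes around the family were taken from lists of E1 enzymes, other E2 and E2-like genes (Ube2c and Ube2s among them), and E3 ligases known as partners of particular E2s. None of the 10 other E2 and E2-like genes and none of the 8 E1 enzymes tested in GV oocytes or 7 tested in eggs were called between genotypes by limma. Nor were any of the 25 E3 ligases tested in GV oocytes. Of all entries 0.0994% were called higher and 0.0181% lower in cKO GV oocytes, and 6.53% and 1.49% in cKO eggs. From GV to MII in WT, 5 of these E2 and E2-like genes were higher and 4 lower of 10, 3 E1 enzymes were higher and 4 lower of 8, and 11 E3 ligases were higher and 8 lower of 25, beside 26.1% and 52.4% of all entries. In cKO these counts were 4 and 3, 2 and 4, and 9 and 9, beside 23% and 51%. Of 24 E3 ligases tested in eggs, 2 were higher and 1 lower in cKO than in WT, beside 6.53% and 1.49% of all entries, and these 3 are described as single genes. Rnf7, the RING partner of Ube2f on cullin 5, stood at 11.4, 10.8, 10.5 and 7.69 FPKM in WT eggs and 21.8, 20.9, 21.4 and 15.7 in cKO eggs. Maea, a RING subunit of the CTLH ligase that works with Ube2h, was 94.6, 106, 107 and 97.5 FPKM in WT eggs and 177, 138, 146 and 118 in cKO eggs. Arih1, which takes ubiquitin from Ube2l3, was 10.2, 8.67, 8.88 and 9.2 FPKM in WT eggs and 6.06, 7.76, 6.76 and 6.76 in cKO eggs. None of these 3 overlapped between the egg groups, where 13.6% of all entries were higher and 7.06% lower in cKO without overlap. The log2 differences of Rnf7, Maea and Arih1 were 0.99 ± 0.15, 0.50 ± 0.12 and -0.44 ± 0.11 (adjusted p = 0.0191, 0.0371 and 0.0429). Rnf7 lost the call without WT MII replicates 1 and 3 (adjusted p = 0.0654 and 0.0576) and without the filter (0.0681), over a range of 0.00266 to 0.0681. Maea lost it without WT MII replicates 1 to 4 (adjusted p = 0.11, 0.072, 0.0797 and 0.082) and cKO MII replicates 1 and 3 (0.0587 and 0.0681), without the filter (0.12) and without the intensity trend (0.0561), over a range of 0.00784 to 0.12. Arih1 lost it without WT MII replicates 1 to 4 (adjusted p = 0.126, 0.0789, 0.0869 and 0.0855) and cKO MII replicates 1, 3 and 4 (0.0726, 0.0809 and 0.0786), without cKO MII replicates 3 and 4 together (0.123) and without the filter (0.114), over a range of 0.0175 to 0.126. For the E2 partners of these ligases the same comparison gave 0.74 ± 0.27 for Ube2f, 0.14 ± 0.08 for Ube2h and 0.09 ± 0.13 for Ube2l3, none past the threshold.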

How the data were processed

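RNA-seq libraries (Smart-seq2, oligo-dT primed, without strand information) were analysed from 16 pools of mouse oocytes. The authors deposited FPKM values per gene, made with TopHat2 2.1.1 and Cufflinks 2.2.1 on mm10 per the submitters' processing notes; the annotation is not given in the sources used here. ERCC RNA was added to the lysis buffer, and 0 ERCC entries were among the values, so that amounts per cell were not measured. Cufflinks divides fragments among overlapping and similar transcripts, which bears on entries with shared sequence.

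Groups were taken from the labels. FPKM below 1 were set to 1, log2-transformed and tested with limma 3.58.1 (R 4.3.3; moderated test with intensity trend, Benjamini-Hochberg adjustment over all entries tested) after entries with a mean under 1 FPKM in the compared libraries were left out; fold changes of low entries are therefore understated. Each comparison used its own 2 groups of 4, the interaction all 16 libraries. Members and gene lists were chosen with earlier results of these data known, and the role of Ube2d-ps and Ube2uos was set after the entries were seen. Named members were those called between genotypes or in the interaction, the 4 that rose and the 4 that fell most from GV to MII in WT, the 4 highest in WT GV oocytes and the highest in each role group; genes of other lists were named when called between genotypes. A member that met these rules is not reported here, though counts and sums include it. Group means for the 3-fold counts were of values floored at 1 FPKM. Sequence sharing was counted in 50-base windows on both strands of GENCODE M21 transcripts, and coding sequences were aligned with Biopython 1.88 (Python 3.11.15); figures were drawn with matplotlib 3.10.9. Alternatives changed the floor, filter, scaling, trend, weights, libraries and block.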

Additional observations from a re-analysis of the deposited data

Results flagged for a closer look

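Of 72 groups of 4 libraries checked over 18 members, 2 held a library far from the other 3 relative to the group's range, where chance flags about 1 group in 20. Both were Ube2f in replicate 3 of a WT group, at 39.1 FPKM in WT GV oocytes beside 33.9 to 34.7 in the others, and at 4.96 FPKM in WT eggs beside 4.33 to 4.42. Neither library changes the fall of Ube2f from GV to MII.

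Ube2a was the one member whose genotype difference itself differed between stages by the interaction test, with a log2 value of 1.03, and this call depends on single libraries as given above.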

How the results depend on the processing

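Of 49 differences of members past the threshold, 40 kept it under all alternatives that tested them. These 40 were among the 45 changes from GV to MII. Another 9 lost it in at least 1 alternative and 0 reversed. A setting whose filter left a member out was not counted for it, so that Ube2q1 in WT rests on 12 of 18 alternatives. Ranges given over all alternatives leave out such settings as well.

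Without a filter on low values, which raises the number of entries tested, 0 members were higher in cKO GV oocytes, 0 in cKO eggs and 0 had a positive interaction. Over all entries these shares were 0.00731%, 0.0571% and 0.0769%. With all 16 libraries in one fit, 7 members were higher in cKO eggs, beside 1328 of all entries (14%). The positive interactions were 0 with 1 FPKM added and 0 without the trend, beside 0.707% and 0.914% of all entries. They were 2 with a mean of at least 5 FPKM and 3 with array weights, beside 3.03% and 2.32%. Leaving out cKO MII replicates 3 and 4, chosen after seeing the data, gave 1 member higher in cKO eggs and 0 interactions. Of all entries 2.35% were higher in cKO eggs and 0.598% had a positive interaction in this setting. Over single libraries left out, the counts ranged from 0 to 1 (higher in cKO GV oocytes), 0 to 3 (higher in cKO eggs) and 0 to 5 (positive interaction). The shares of all entries ranged from 0.027% to 0.144%, 0.0315% to 10.8% and 0.35% to 5.67% in the same order. By a 2-fold rule in place of 3-fold, 1 member was higher and 12 lower from GV to MII in WT, beside 7.64% and 35.2% of all entries, and 2 higher and 9 lower in cKO, beside 5.92% and 31.7%; median-ratio rescaling gave 1 over 3-fold higher from GV to MII in cKO, beside 2.24%. The share of higher calls among all entries moved with median-ratio rescaling from 620 higher and 141 lower to 510 and 207 in cKO against WT eggs, and from 2472 and 5482 to 3314 and 4574 from GV to MII in cKO. The cause of these changes was not tested.

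The labels number replicates 1 to 4 in each group. Deviations from the group means of same-numbered libraries correlated at -0.489 to 0.288 over the entries tested, and in 1 of 16 cases (4 numbers in each of 4 comparisons) a library correlated best with its own number in the other group, so the numbers do not pair the libraries. With the replicate block, 0 members were higher in cKO GV oocytes, 0 in cKO eggs and 0 had a positive interaction. Over all entries these shares were 0.0362%, 1.06% and 0.499%. From GV to MII the block gave 7 higher and 14 lower in WT, beside 24.9% and 51.1% of all entries. In cKO the block gave 7 higher and 12 lower, beside 21% and 49.1%. Between egg groups it left Rnf7 past the threshold and not Psma7, Zp3, Ooep, Maea or Arih1.

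Depth, known only roughly as 10600000 to 15900000 fragments per library within the range searched, limits the precision of members near 1 FPKM most.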
